A study of Drosophila melanogaster with 4 samples.

Results

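The peaks described here are the 775 regions of X chromosome euchromatin, the gene-rich part of the X, in a list of 4198 regions called as bound by GFP-tagged Notch in *Drosophila melanogaster* larvae. A peak was a member if it lay on the X and its centre was at or below base 21400000 in release 5 of the genome. No score was used in the choice, and the members were 18.5% of the list. The other 14 peaks of the X lay nearer the centromere. The last members inside the limit ran from 21244855 to 21245130, with a score of 15.2, and from 21342466 to 21343325, with a score of 68.0. The first peaks outside ran from 21501086 to 21502362, with a score of 148.5, and from 21503817 to 21504255, with a score of 89.5.

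The study precipitated chromatin from wandering larvae of the third instar (L3) with ab290, a rabbit polyclonal serum raised against GFP (2 libraries), and sequenced it beside input DNA (2 libraries). All of these libraries came from the strain Notch-GFP, with the genotype PBac{y[+]-attP-3B}VK00033 and a transgene that holds the Notch genomic coding region. The sex of the larvae was given as unknown, and the extraction protocol describes y; bw cn sp flies. Whole larvae were used, so the peaks pool all tissues, and no precipitation from untagged larvae is labelled. The 1 deposited list carries no value per library, so no peak has a replicate error and the depth behind a peak is unknown. A stretch without a peak was not called at that unknown depth, and is not shown to be unbound.

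Notch is a receptor that is cut when a neighbouring cell presents a ligand such as Delta or Serrate. The freed intracellular domain enters the nucleus, where it joins the DNA-binding protein Su(H) and the coactivator Mastermind at enhancers and promoters of target genes. At the wandering stage the imaginal discs are being patterned, partly through Notch, and the steroid hormone ecdysone starts the change from larva to pupa.

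The X peaks were mostly short, and most scores lay in the lower part of their own range. Their median width was 499 bp (95% order-statistic interval 474 to 533 bp), quartiles were 332 and 834 bp, and the range was 201 to 3432 bp. The authors' score, whose scale is not given in the sources used here, had a median of 24.6 (22.1 to 27.1) and quartiles of 13.2 and 57.8, between 6.88 and 360.2. Scores above 100 were given to 101 peaks (13.0%, exact binomial interval 10.7 to 15.6%). Together the peaks covered 0.499 Mb, or 2.33% of the X euchromatin.

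Peaks per Mb and the closeness of peaks were the measures in which the X and the large autosome arms (2L, 2R, 3L and 3R, 2784 peaks) had intervals that did not overlap. The X had 36.2 peaks per Mb (exact Poisson interval 33.7 to 38.9), against 28.9 (27.8 to 30.0) on those arms. Lengths of the autosome arms were taken up to their last peak. Unlike the X, they were not cut at a limit. They therefore include sequence nearer the centromere and the tandem block of peaks on 2L. Of the X peaks, 53.8% (50.2 to 57.4%) had a neighbour closer than 5 kb, against 46.6% (44.7 to 48.5%) on the autosome arms. From a peak to its closest neighbour the median was 4.39 kb (3.52 to 4.90 kb) on the X and 5.73 kb (5.37 to 6.34 kb) on the autosome arms. Among single arms, 2L and 2R had intervals of this distance that overlapped that of the X, at 4.95 kb (3.96 to 5.96 kb) and 5.20 kb (4.49 to 6.45 kb). The share with a neighbour closer than 5 kb overlapped too, at 50.0% on 2L (46.1 to 53.9%) and 48.3% on 2R (44.5 to 52.1%), and so did the 32.8 peaks per Mb of 2R (30.4 to 35.3). Widths and scores overlapped too, with a median score of 24.6 on the X and 25.4 (24.1 to 27.0) on the autosome arms. All these intervals treat peaks as independent and cover counting error only, and no test was made, since peaks of 1 list are not replicates.

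To name genes, the release 6 gene table was placed on the X by subtracting 105967 bp from its positions, and this shift was checked against the peaks. At that shift, 39.1% of peak centres lay within 500 bp of a gene end. Other shifts up to 100 kb to either side, in steps of 1 kb, had a typical share (median, leaving out shifts under 5 kb from the one used) of 18.2% and at most 26.5%, and using no shift gave 17.8%. In steps of 50 bp, up to 2 kb to either side, the share was highest at 100 bp above the shift used, with 40.4%, so the check does not single out this shift among those close by. In 9 of 11 stretches of 2 Mb the shift gave the highest share of the 201 scanned, from 33.3 to 71.9%. It did not from 2 to 4 Mb, where it gave 19.2% against at most 26.9% at another shift, nor past 20 Mb, where 21 peaks gave 33.3% against 52.4%. Genes named in these stretches (N, Raf, csw, ph-d, ph-p, wapl, z, sgg, kirre, dnc, Tlk and sw among them) rest on the shift of the rest of the arm. The table has 1 entry per gene and no strand, so a gene end below is either the start or the finish of a gene, and a start inside a gene counts as gene body.

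**Figure D1:**
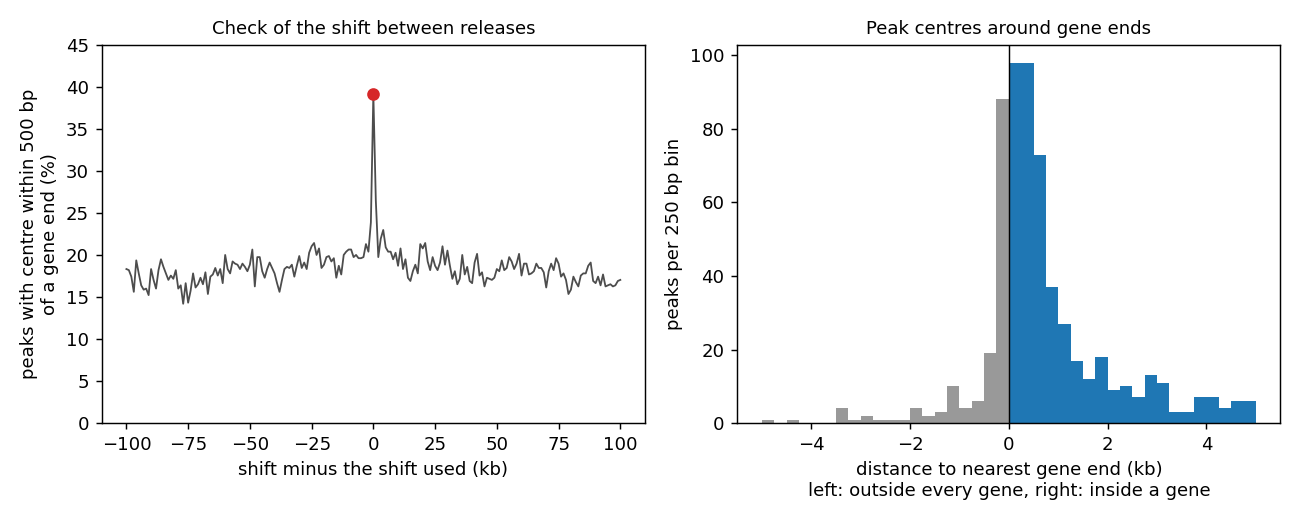
Left, the share of X peak centres within 500 bp of a gene end (y axis, %) against the shift tried between the releases, relative to the shift used (x axis, kb); the red point at 39.1% is the shift used, and no other shift in steps of 1 kb exceeded 26.5%. Right, the number of X peaks in bins of 250 bp (y axis) by distance of the centre to the nearest gene end (x axis, kb), outside every gene on the left and inside a gene on the right. Within 1 kb, 306 peaks lay on the inside and 117 on the outside. These counts are not adjusted for the bases on each side, and gene bodies held 78.8% of all bases.

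Peaks gathered at gene ends. Of the 775 peaks, 335 (43.2%, exact interval 39.7 to 46.8%) came within 250 bp of at least 1 gene end. Intervals of the same widths placed at every position of the X euchromatin would do so at 18.5% of positions. The check of the shift also used nearness to gene ends, so it is not independent of this share. No check of the shift at a single gene is given. A further 393 peaks (50.7%) were in a gene body away from its ends, and 47 (6.06%) were between genes. Their median scores were 18.9 (17.5 to 21.5) and 21.41 (13.5 to 29.0). Gene bodies as a whole were not favoured by this measure, since they held 80.4% of peak centres and 78.8% of the bases. The nearest gene end was a median of 0.785 kb from the centre. It was over 5 kb away for 161 peaks and over 20 kb away for 42.

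Scores differed with the number of gene ends at a peak, by intervals that did not overlap. The 157 peaks at the ends of 2 or more genes had a median score of 50.7 (39.1 to 65.7). For the 178 peaks at the end of 1 gene it was 30.9 (25.0 to 38.6). Their median widths were 704 and 551.5 bp. All 335 peaks at gene ends had a median score of 38.6 (32.3 to 44.7), against 19.2 (17.5 to 21.8) for the 440 peaks elsewhere. The median width at gene ends was greater too, 637 bp (573 to 684 bp), against 444.5 bp (415 to 476 bp) elsewhere. Width and score went together (rho = 0.770 by Spearman and r = 0.634 by Pearson over the 775 peaks, which are not independent). Within 4 classes of width of nearly equal number, the median score at gene ends was above that elsewhere in each, with 13.1 against 11.9 in the narrowest, 21.9 against 20.4, 48.9 against 24.9, and 93.0 against 67.7 in the widest. Of the 194 peaks with the highest scores 64.4% (57.3 to 71.2%) were at a gene end, against 30.9% (24.5 to 37.9%) of the 194 with the lowest. Median widths of these sets were 996 and 286 bp. A wider peak comes within 250 bp of a gene end at more positions, and these shares are not adjusted for width.

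**Figure D2:**
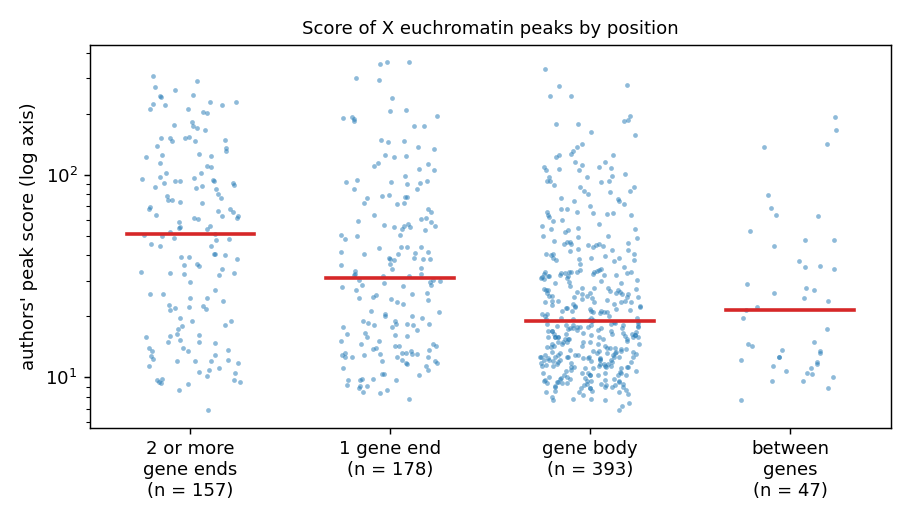
The authors' score of each X euchromatin peak (y axis, log scale) for peaks at 2 or more gene ends, at 1 gene end, in a gene body and between genes (x axis); each point is a peak and each red line a median. The medians are 50.7, 30.9, 18.9 and 21.41, and every class spans most of the range of scores.

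Among the 144 peaks at the ends of exactly 2 genes, the genes overlapped in 23 cases and lay apart in 121, with a median gap of 253 bp between them. Isolated protein-coding genes, with no other gene within 1 kb and a length of at least 2 kb, numbered 89. Of these, 13 had a peak at an end (14.6%, 8.01 to 23.7%), and each of the 13 had it at 1 end and not at the other. The share was 20.3% for protein-coding genes of all lengths, which include shorter genes. It was 28.2% for those of 2.557 to 6.215 kb and 30.3% for longer ones, both above the interval of the isolated genes. No test of this difference was made.

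The highest-scoring X peaks named transcription factors, kinases, coactivators and housekeeping genes. Of the 20 peaks with the highest scores, 15 were at a gene end, 9 of them at the ends of 2 or more genes, and the other 5 were in gene bodies. The highest, from 16970508 to 16972201 with a score of 360.2, lay at an end of wcy. The second (17720325 to 17721686, score 358.5) lay at an end of Socs16D, of a family of inhibitors of cytokine signalling. The third (19530847 to 19532473, score 353.4) lay at an end of e(y)3, which encodes the SAYP subunit of a chromatin-remodelling complex.

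Disc patterning factors stood among these top peaks. The fourth peak, from 4318832 to 4319724 with a score of 331.0, was inside bi, the optomotor-blind T-box gene of the wing and optic lobe. Its centre was 12.4 kb from an end of bi, and peaks with scores of 54.1 and 177.7 lay on either side of it. The paralogous zinc-finger genes disco and disco-r, which act in head and leg development, both carried top peaks. The peak at disco (16110501 to 16112193) scored 294.0, with its centre 0.564 kb beyond an end of the gene. At disco-r, peaks with scores of 272.8 (16041464 to 16042665) and 239.4 (16042903 to 16043532) lay side by side near 1 end. Inside sd, which encodes the TEAD protein that partners Vestigial and Yorkie, the single peak (15705543 to 15708384) was 2842 bp wide and scored 244.9. The gene end nearest to its centre was that of CG8509, 1.98 kb away.

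Other top peaks lay at genes of signalling and of general cell functions. The peak at Tomosyn and CkIalpha, a casein kinase of the Wnt and Hedgehog pathways, scored 306.3 (12547661 to 12549010). That at Tao, a kinase of the Hippo pathway, scored 300.3 (19471815 to 19473862). The shared ends of Smox, a Smad of activin signalling, and CG17982 had a peak with a score of 272.3 (8035368 to 8036419). Translation factors were represented by eIF5, whose peak also touched ND-20 and CG46312 (score 291.7), and by eIF4H1 with its neighbour CG34015 (score 263.0). A peak from 9578235 to 9579447 inside nej, the gene of the coactivator CBP, scored 243.9. The remaining named peaks were in CG14434 (275.9) and at amrt and inaE (247.8), Amun and prtp (244.6), sordd1 (241.4), wapl, a cohesin release factor, and Cyp4d1 (229.0), and Actn, usp, CG4313 and CG4325 (228.3).

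Peaks came in runs along the X. With at most 5 kb from the end of a peak to the start of the next, the 775 peaks formed 496 runs, of which 342 were single peaks. Runs of 5 or more, called groups here, numbered 16 and held 103 peaks (13.3%, 11.0 to 15.9%). The autosome arms had 10.6% (9.44 to 11.8%) of their peaks in such groups, and 2L alone, with its tandem block of peaks, had 18.4% (15.5 to 21.6%). The share was 9.72% (7.62 to 12.2%) on 2R, 7.24% (5.37 to 9.51%) on 3L and 7.49% (5.75 to 9.55%) on 3R. The intervals of 3L and 3R lay below that of the X. Of the peaks in groups 23.3% (15.5 to 32.7%) were at a gene end, against 52.9% (47.5 to 58.3%) of single peaks, and no test of this difference was made. Their median score of 21.8 (17.6 to 27.9) had an interval that overlapped that of single peaks, 26.2 (22.7 to 31.7).

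The ecdysone gene br had the most peaks of any X gene apart from Mur2B, which overlaps it. br, the Broad-Complex, encodes zinc-finger factors that are among the first genes to respond to ecdysone and that direct the larval to pupal change. Across its 89.7 kb lay 21 peaks, or 2.34 per 10 kb, with scores from 8.88 to 97.9 and a median of 16.8. The highest, from 1505912 to 1507624, was 37.6 kb from the left end of the gene and belonged to a group of 10 peaks in 16.5 kb (1499733 to 1516255). A group of 6 peaks (1459639 to 1475596) covered the left end, with a score of 53.1 for the peak over that end and 62.0 for the next peak inside. Only 1 of the 21 peaks was at a gene end. Mur2B spans 145.2 kb and contains br, so its 24 peaks include those of br.

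**Figure D3:**
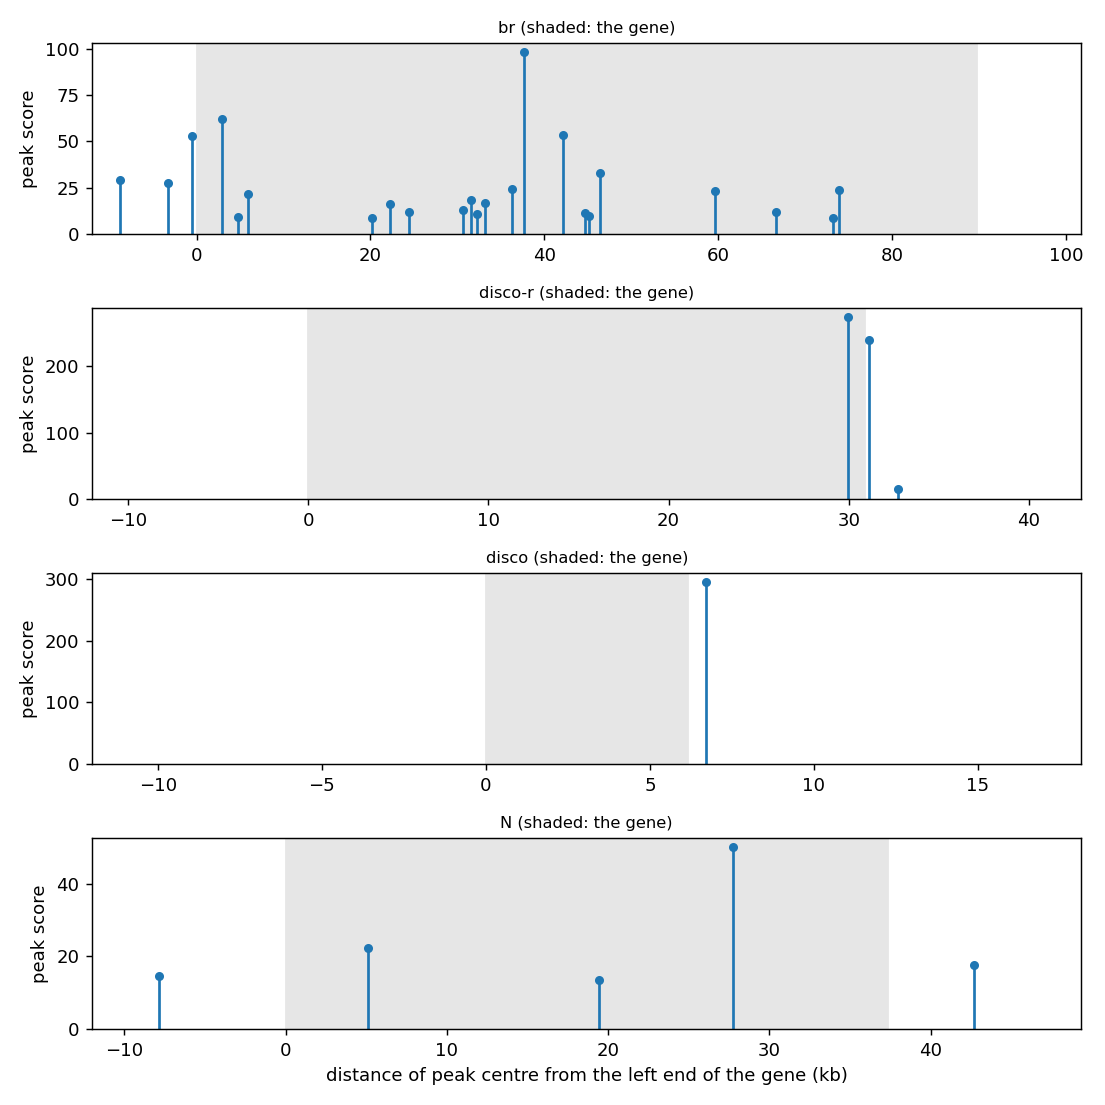
The authors' score of each peak (y axis) against the distance of its centre from the left end of the gene (x axis, kb) at br, disco-r, disco and N, within 10 kb of each gene (shaded). At br many peaks with scores up to 97.9 spread through the gene, while disco-r and disco carried peaks with scores from 239.4 to 294.0 near 1 end; a small peak with a score of 14.6 lay beside those of disco-r.

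Other groups lay within single long genes or over several neighbouring genes. Raf, the kinase downstream of Ras, had 11 peaks in its 48.4 kb with scores from 8.56 to 44.4. A group of 11 that ran from 2187779 to 2202862 overlapped it. Another 11 peaks, between 6746410 and 6763160, lay over CG14434, lncRNA:CR45531 and CG43736. That group contained the peak with a score of 275.9, and the median of its scores was 26.3. Groups of 6 peaks each were found at LPCAT (9473133 to 9479706; 4 at a gene end), at Tomosyn, CkIalpha and Tis11 (12543554 to 12563977), at Smr (12627785 to 12638960), at Paics and pira (12645240 to 12655412; 4 at a gene end) and in mamo (13773249 to 13785595). Tis11 encodes an mRNA decay factor, and Smr the SMRTER corepressor, a partner of Su(H) and of the ecdysone receptor. Of the groups with 5 peaks, the first along the X covered Hr4 and its neighbours (1834065 to 1846036). In 6 of the 16 groups no peak was at a gene end.

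Counted per gene, 562 of the 2598 genes placed in the X euchromatin (21.6%) were overlapped by a peak. Of these, 411 had 1 peak, 132 had 2 to 4 and 19 had 5 or more. After Mur2B and br came lncRNA:CR44357 with 13 peaks and a length of 239.3 kb, and mamo with 12 peaks overlapping its 144.4 kb. Raf and Tlk, a chromatin-linked kinase, had 11 each, and Smr and CG14434 had 10 each. CG1677 and kirre, an adhesion gene of myoblast fusion, had 9 each. Relative to length, CG14434 had 6.54 peaks per 10 kb and kirre, 394.1 kb long, had 0.228. The overlaps are not independent, since CG1677 and lncRNA:CR44357 share peaks.

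A peak at a gene end was found for 478 of the 2598 genes (18.4%), and this share varied with gene length and kind. With the protein-coding genes cut into 4 classes by length, it was 7.71% for genes up to 1.35 kb, 14.8% for those up to 2.54 kb, 28.2% for those up to 6.22 kb and 30.3% for longer genes. It was 20.3% for all 2128 protein-coding genes, 12.3% for 227 lncRNA genes and 5.56% for 54 miRNA genes. None of the 26 tRNA genes and pseudogenes had a peak at an end, which allows up to 11.5% by 3 counts and 13.2% by the exact interval.

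The gene lists are read against that 18.4%, without a test. They were chosen with earlier results of these data known, so a high share is a description and not independent support. Growth and chromatin regulators had the highest share, with a peak at an end of 12 of 20 genes (60.0%, exact interval 36.1 to 80.9%), at a median length of 7.54 kb. The share was 30.3% for all protein-coding genes of 6.23 kb or longer. The 12 genes included nej, with a peak scoring 71.5 at an end and peaks of 100.3 and 243.9 in its body. The Polycomb group genes ph-d (147.7) and ph-p (76.7 at an end and 63.8 in its body) were also in this set. So were the zeste gene z (114.9) and CycD, a cyclin of cell growth (185.2). Smr had 10 peaks with scores between 7.84 and 122.9, of which 1 was at a gene end and the highest was in its body. CoRest, a corepressor gene, had a peak in its body only (163.4). No peak touched Myc, Rbf, Polr2A, Top1, Cdk7, Taf9 or w.

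Developmental transcription factors had a peak at an end in 9 of 29 genes (31.0%, 15.3 to 50.8%), and in 15 when peaks in the gene were added. The background for an end or a body is 24.8%, and the median length of the 29 genes was 16.0 kb. A peak overlapped 13 of the 29 (44.8%). Of all protein-coding genes of 6.23 kb or longer, 30.3% had a peak at an end and 50.6% were overlapped by a peak. The ends with peaks were those of br, usp, oc, btd, mamo, exd, disco, disco-r and Dsp1. The peak at oc, the head gene orthodenticle, scored 208.8, and that at the HMG-box gene Dsp1 scored 147.6. The homeodomain cofactor exd had 40.5 and the head gap gene btd 18.5. In ct, whose wing margin expression depends on Notch, peaks with scores of 74.2 and 16.9 lay in the gene body. Bx, a LIM-only gene of the wing, had 44.2 in its body. A peak of 67.5 also lay inside Bx, but at an end of another gene. No peak was at lz, peb, run, B-H1, B-H2 or vnd.

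Of 7 genes on the list named ecdysone and moulting, 5 had peaks at an end or in the body (71.4%, against 24.8% of all X genes). These were br, Hr4, usp, rg and Imp. A role of rg or Imp in ecdysone signalling or moulting is not shown here, and both genes are long (169.1 and 36.4 kb). At an end there were 2 of 7 (28.6%, 3.67 to 71.0%), against 18.4%. usp, the partner of the ecdysone receptor, had 228.3 at an end shared with Actn, CG4313 and CG4325, and a second peak of 18.3. Hr4, a nuclear receptor induced by ecdysone, had 6 peaks in its body with scores from 10.6 to 42.1. Imp, which encodes an RNA-binding protein of growth and neural timing, had 11.1, 185.9 and 34.8. Neither dor nor Cyp18a1, the enzyme that breaks down ecdysone, had any. The median length of the 7 was 36.4 kb, and a peak overlapped 50.6% of all protein-coding genes of 6.23 kb or longer.

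In the Notch pathway itself, 2 of 6 genes had a peak at an end or in the body (33.3%, against 24.8% of all X genes), and 1 of 6 at an end (16.7%, 0.421 to 64.1%, against 18.4%). N had 3 peaks inside its 37.4 kb, with scores of 22.3 (3033643 to 3034372), 13.5 (3048146 to 3048522) and 50.0 (3056245 to 3057085), and none at an end. Outside N the nearest peaks within 10 kb scored 14.6 and 17.5. The transgene adds copies of N sequence, and reads of the transgene and of the resident gene cannot be told apart in the list. Of the other 5 pathway genes, sno had 1 peak (score 9.69), and dx, pcx, amx and shi had none. The achaete-scute complex, whose proneural genes ac, sc, l(1)sc and ase are restrained by Notch signalling in the discs, had no peak at any of 4 genes. With 4 short genes, a median of 1.27 kb, that count says little.

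**Figure D4:**
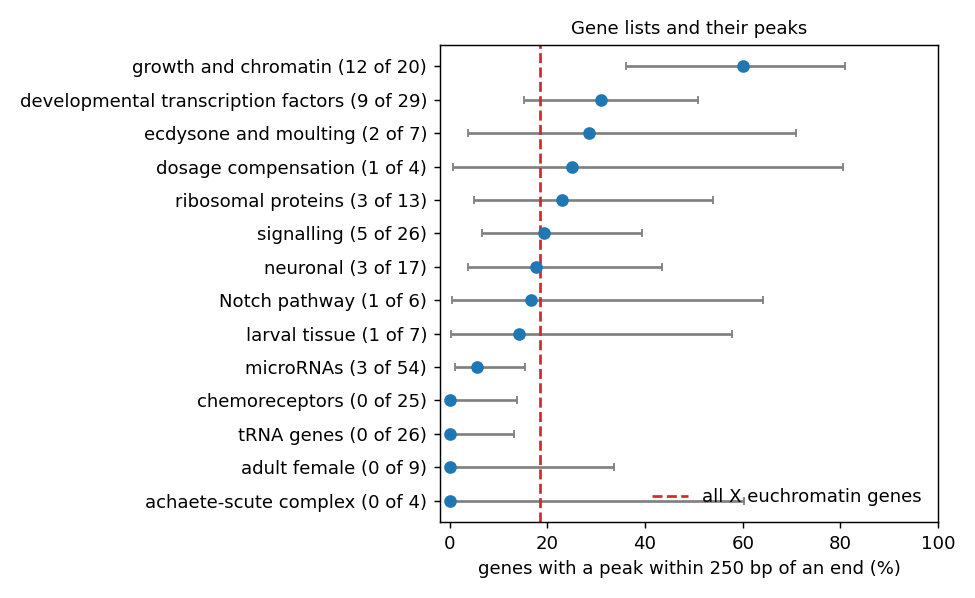
The share of genes with a peak within 250 bp of an end (x axis, %) for 14 lists of X genes (y axis, with counts); points are shares, bars are exact 95% binomial intervals, and the dashed line is the 18.4% of all X euchromatin genes. Growth and chromatin genes, at 60.0%, have an interval wholly above the line, while those of chemoreceptors, tRNA genes and microRNAs lie wholly below it. The lists were chosen with earlier results of these data known and differ in gene length, which the line does not take into account.

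Signalling genes had a peak at an end in 5 of 26 (19.2%, 6.55 to 39.4%, against 18.4% of all X genes). At an end or in the body, 10 had a peak (38.5%, against 24.8%). Their median length was 9.93 kb. Of all protein-coding genes of 6.23 kb or longer, 30.3% had a peak at an end and 50.6% were overlapped by a peak. sgg, the GSK3 kinase of Wnt signalling, had 6 peaks, the highest of 207.5 at an end and 184.6 inside. csw, the SHP2 phosphatase of receptor tyrosine kinase signalling, had 5 peaks with scores between 6.88 and 166.7. arm, the beta-catenin gene, had 9.39 and 98.1, and sdt, a polarity gene, had 8 peaks of at most 65.0. Neuronal genes, with a median length of 38.6 kb, had 3 of 17 at an end (17.6%, 3.80 to 43.4%). A peak touched 7 of them (41.2%, against 24.8% of all X genes), and none scored above 45.5, the highest of dnc. Ribosomal protein genes had 3 of 13 (23.1%, 5.04 to 53.8%), with scores of 112.6 at RpS5a, 92.9 at RpS14b and 14.0 at RpL17. RpS14a and RpS14b are near-identical copies, so the placing of reads between them is uncertain.

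Among protein-coding genes of up to 1.35 kb, 7.71% had a peak at an end, and among those of 1.35 to 2.54 kb, 14.8%. Of 25 chemoreceptor genes 0 had a peak, which allows a share of up to 12.0% by the limit of 3 counts and 13.7% by the exact interval, against 18.4% of all X genes with a peak at an end. Their median length was 1.87 kb. The 9 yolk and eggshell genes of the adult female had 0 as well, which allows up to 33.3% by 3 counts and 33.6% by the exact interval, above the 18.4%. In the list for larval tissue, with a median length of 0.690 kb, 1 of 7 genes had a peak at an end (14.3%, 0.361 to 57.9%). The glue gene Sgs4, the salivary gland genes ng1, ng2, ng3 and Pig1, and the serum protein gene Lsp1alpha had none. Only the actin gene Act5C had peaks there, with scores of 15.9, 15.8 and 20.0. In the dosage compensation list, Sxl, the master switch of sex, had 40.6 and 9.73, while roX1, roX2 and mof had no peak.

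Peaks were unevenly spread along the arm. The 21 full windows of 1 Mb held 36.6 ± 12.6 peaks (SD). The second window, from 1000001 to 2000000, had the most with 69, 33.3% of them at a gene end. It contains br, Hr4 and usp, and its highest peak was the one at usp. Next came the window from 16000001 to 17000000 with 52 peaks, of which 15 scored above 100, and it contains disco, disco-r and wcy. The window from 13000001 to 14000000 had 50 peaks, with the one at amrt and inaE highest. The fewest were 14 peaks from 20000001 to 21000000, where the highest scored 98.6 at sw, a dynein gene. From 14000001 to 15000000 there were 15, the highest 223.7 at mRpS25 and nmdyn-D6, and in the first window there were 21, the highest 92.3 at CG32815 and TRAM. Across the 21 windows the number of peaks and the number of genes were correlated (r = 0.351 by Pearson, rho = 0.537 by Spearman), given as a description of neighbouring windows of 1 chromosome.

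**Figure D5:**
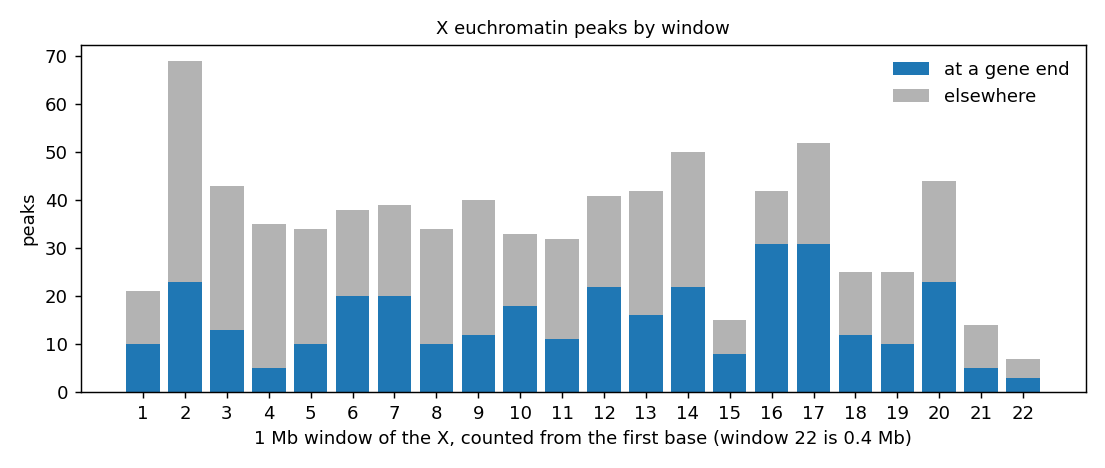
The number of X peaks in each window of 1 Mb (y axis) in order along the arm (x axis, counted from the first base), split into peaks at a gene end and elsewhere. The second window has 69 peaks and the window with the fewest among the full ones has 14; window 16 has the highest share at a gene end, 73.8%, and window 4 the lowest, 14.3%, but window 4 lies in the stretch from 2 to 4 Mb, where the shift was not the highest scanned.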

How the data were processed

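The authors deposited 1 peak list for the 4 libraries, with a first and last base and a score per peak. Per the file headers it is on FlyBase release 5 and names MACS as the source. The submitters' processing notes name MACS2, BWA and CASAVA (versions 1.7.0.2 and 1.7.0.3). Settings, thresholds and the pooling of replicates are not given there. Cross-linking was in 1.8% formaldehyde for 15 min after growth at 25 °C, per the labels' protocols. The authors' deposited score was used only within the list.

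Members, gene lists and the rule for named genes were chosen with earlier results of these data known. The rule named genes at the 20 highest peaks, in the 10 largest groups, with the most peaks, in the lists, and at the top peak of the fullest and emptiest windows. Genes came from the RefSeq table of release 6, which has no strand, so gene ends replaced the planned gene starts, and a motif search was not run, since no sequence was used here. Of the listed names, 12 were not placed. Older symbols were matched through synonyms. Overlap was counted by position. Intervals are exact binomial, exact Poisson or order-statistic at 95% and cover counting error only. Scripts were tested on simulated data. The software was scipy 1.17.1, pandas 2.3.3 and numpy 2.4.6 under Python 3.11.15. One listed gene is not reported here by name.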

Additional observations from a re-analysis of the deposited data

How the results depend on the processing

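Of 45 values recomputed under alternatives, 21 stayed within the interval of the reported value and 24 moved. For numbers of peaks or groups, staying meant within 1.5 times. The excess of score at gene ends over elsewhere was positive in all 7 settings that recomputed it, from 11.9 with a distance of 1 kb to 31.7 with 0 bp. Keeping only scores at or above the median left 388 peaks by construction, a median width of 781.5 bp, a median score of 57.8, 11.1 kb to the nearest peak, 2 groups, 54.4% of peaks at a gene end, 12.2% of genes with such a peak, and median scores of 71.5 at gene ends and 45.5 elsewhere. Merging peaks within 1 kb gave a median width of 577.5 bp, a median score of 28.4 and 7.61 kb to the nearest region. It left 2 groups and 49.8% at a gene end (20.4% of positions). The number of groups was 32 with a gap of 10 kb and 6 with 2 kb. With a distance of 0 bp to a gene end, 30.7% of peaks (11.4% of positions) and 12.4% of genes qualified and the median score at ends was 50.6; with 1 kb these were 60.6% (32.7% of positions), 27.1% and 30.4. Protein-coding genes alone gave 20.3% of genes. Leaving out the stretches where the shift was not the highest, a setting chosen after seeing the data, gave 20.0% of genes. The cause of the moves was not tested beyond what each setting sets by construction. No paired analysis was possible because no value per replicate is in the list, and no replicate could be left out. Without the depth of the libraries, a stretch without a call cannot be read as unbound.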

Other observations

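Long stretches of the X euchromatin held no peak. Gaps between neighbouring peaks exceeded 100 kb in 44 cases and 200 kb in 15. These stretches were named after their values were seen. The longest, 442.9 kb from 11923224 to 12366122, contained 27 genes, among them Ten-a, a teneurin of synapse formation, Pkcdelta and the chemoreceptor gene Ir11a. The next, 335.0 kb from 14141830 to 14476868, contained 17 genes, including na, which encodes a sodium leak channel, dpr8 and 4 genes named betaNACtes. A stretch of 294.0 kb from 20631588 to 20925615 contained shakB, a gap junction gene of neurons, and 18 other genes. The stretch of 283.3 kb from 2558108 to 2841369 contained 41 genes, including the clock gene per and the eye pigment gene w.

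Some stretches without peaks held general cell genes as well. From 580755 to 829219, 248.5 kb contained Rbf, RpL22, Sec22 and MED22 among 30 genes. From 19782130 to 20052937, 270.8 kb contained 40 genes. They include a series with neighbouring CG and CR numbers, such as CG45486 to CG45494. The reads behind these stretches are unknown.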
